A study of Sus scrofa with 12 samples.

Results

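Of 13311 genes with any transcript, 9127 had a mean above 0.5 FPKM over the libraries. Loin muscle levels of 10 genes grouped here as GADD45, phosphatase and stress kinase feedback genes were examined. They are a named list drawn up with earlier results of these animals known, so their shared direction is a description and not independent evidence, and are the growth arrest and DNA damage genes *GADD45A*, *GADD45B* and *GADD45G*, the MAP kinase phosphatases *DUSP1* and *DUSP10*, the pseudokinase *TRIB1*, the mRNA decay factors *BTG2* and *ZFP36*, and the immediate early response genes *IER2* and *IER5*. All 10 had an assembled transcript and passed the filter, and 9 had a value in all 12 libraries. RNA was sequenced from the *Longissimus dorsi* of castrated male Iberian pigs of 1 purebred line, fattened outdoors on acorns and grass and slaughtered at a similar age over successive years, with 1 library per animal. The 6 Tough animals had the highest and the 6 Tender animals the lowest estimated breeding values for the shear force of cooked loin, and close siblings were avoided. Shear force ran between 7.32 and 10.63 kg/cm2 in the Tough group and between 2.18 and 3.43 kg/cm2 in the Tender group, a gap that comes from the selection. A further Tender animal of the study was not analysed here. The paper also reports less intramuscular fat in the Tough group than in the Tender group, so the groups differed in more than shear force. The part of fat in the levels given here was not tested. The muscle was taken after slaughter, so the levels are those of post-mortem tissue in both groups.

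The stress kinases p38 and JNK are activated by chains of upstream kinases when cells meet heat, stretch, lack of oxygen or inflammatory signals. The genes followed here are switched on within minutes to hours of such signals, and many of their products act back on the chain: GADD45 proteins bind the upstream kinase MAP3K4 and GADD45B also binds MAP2K7, DUSP proteins remove phosphate from p38 and JNK, TRIB1 binds a MAP kinase kinase and a ubiquitin ligase, and BTG2 and ZFP36 bring the CCR4-NOT deadenylase to messenger RNAs, which shortens their lives. These roles were worked out largely in human and mouse cells.

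The stretches of DNA just before the genes are shown because they hold a letter pattern that several members share. The full cAMP response element, TGACGTCA, stood within the 250 bases before the annotated start of *DUSP1*, *TRIB1* and *BTG2*, 3 of the 10 members, and in 1.7% of the 19556 annotated protein-coding genes. The next lines give these 3 windows and, for *GADD45B*, the 250 bases before the start of its assembled transcripts, from Sscrofa11.1 and 5′ to 3′ on the strand of the gene, with TGACG on either strand in capitals.

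DUSP1, chr16:51457674-51457923, plus strand: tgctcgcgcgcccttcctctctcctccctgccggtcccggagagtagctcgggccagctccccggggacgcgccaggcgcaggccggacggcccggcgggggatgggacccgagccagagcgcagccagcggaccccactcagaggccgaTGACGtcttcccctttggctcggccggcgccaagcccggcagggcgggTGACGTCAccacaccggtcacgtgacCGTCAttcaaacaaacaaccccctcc
TRIB1, chr4:14298120-14298369, minus strand: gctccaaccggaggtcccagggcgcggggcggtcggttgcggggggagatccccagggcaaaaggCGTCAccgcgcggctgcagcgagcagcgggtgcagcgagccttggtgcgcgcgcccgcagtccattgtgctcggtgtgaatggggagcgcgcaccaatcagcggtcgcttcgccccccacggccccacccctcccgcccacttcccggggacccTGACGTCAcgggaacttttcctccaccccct
BTG2, chr9:64033603-64033852, plus strand: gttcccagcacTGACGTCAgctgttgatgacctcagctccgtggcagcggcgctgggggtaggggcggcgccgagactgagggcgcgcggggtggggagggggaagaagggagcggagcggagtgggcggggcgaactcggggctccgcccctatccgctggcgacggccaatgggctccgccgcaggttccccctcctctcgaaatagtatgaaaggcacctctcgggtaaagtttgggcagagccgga
GADD45B, chr2:76109989-76110238, minus strand: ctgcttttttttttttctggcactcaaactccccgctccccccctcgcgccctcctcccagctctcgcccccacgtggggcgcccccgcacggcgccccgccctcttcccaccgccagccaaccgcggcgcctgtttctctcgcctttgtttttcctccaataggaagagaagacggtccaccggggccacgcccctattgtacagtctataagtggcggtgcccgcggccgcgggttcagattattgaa

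Counting back from -1, the last base before the start, the element ran over bases -52 to -45 in *DUSP1*, -31 to -24 in *TRIB1* and -239 to -232 in *BTG2*. Its shorter core TGACG, which is part of the full element, was found on either strand before 6 members, *GADD45B*, *IER2* and *IER5* being the other 3, and before 19.6% of all genes. The *GADD45B* window printed here, taken from where the muscle transcripts began, held neither, its core match lying before the annotated start. The AP-1 pattern TGANTCA was in none of the 10 windows and in 5.27% of those of all genes, the CArG box of the serum response factor was before *IER2* alone (1.31% of all genes), and TATAAA was before *GADD45B*, *GADD45G* and *IER5* (9.77%). CCAAT was before 5 members (31.9%) and GGGCGG before 8 (45.9%). In the 250 bases before the assembled starts, the full element was again before *DUSP1*, *TRIB1* and *BTG2*, TGACG was before 4 members, TATAAA and the CArG box before 0, and CCAAT before 7. The assembled start is the median over libraries of the start of the highest transcript. Only 5 libraries for *GADD45G* and 7 for *IER5* began within 100 bases of it. The assembled windows of these genes ended before the TATAAA found at their annotated starts. The assembled transcripts of *IER2* began 1079 bases inside its annotated gene. These are matches of letters on both strands, and whether any factor was bound was not measured.

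Of the 10 members, 9 had a log2 fold change above 0 for Tough over Tender, and *GADD45A* had one below 0 (FPKM is fragments per kilobase of transcript, scaled to library size by Cufflinks). Of all genes tested 39.9% lay above 0, and 51.0% and 50.4% did with median-of-ratios scaling and quantile normalization. The median log2 fold change of the members was 0.37, against -0.04 over all genes. The middle values were those of *GADD45G* and *BTG2*, and the signs of *GADD45G*, *BTG2*, *IER2*, *IER5* and *ZFP36* each turned under at least 1 other setting. For *GADD45G* the value was 0.07 per exon base and -0.49 without Tender 3, where the gene was listed at 0. A gene was called where the limma p was at most 0.05, the Benjamini-Hochberg adjusted p at most 0.10 and the fold change at least 1.5. No member was called, and neither was any other gene (0%). At an unadjusted limma p of at most 0.05, 1 member, *TRIB1*, was higher in the Tough group, where 0.723% of all genes were, and none was higher in the Tender group, where 1.72% were. By limma 223 genes were at that level in either direction. An exact permutation test over the animals called 0 genes and placed 222 at an unadjusted p of at most 0.05, *TRIB1* alone of the members, with 0.657% of all genes higher in the Tough group at that level. An exact Wilcoxon rank-sum test called 0 of 8454 genes without tied values and placed 172 at an unadjusted p of at most 0.05. In whole muscle, fewer cells of a type and less RNA per cell cannot be told apart.

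**Figure D1:**
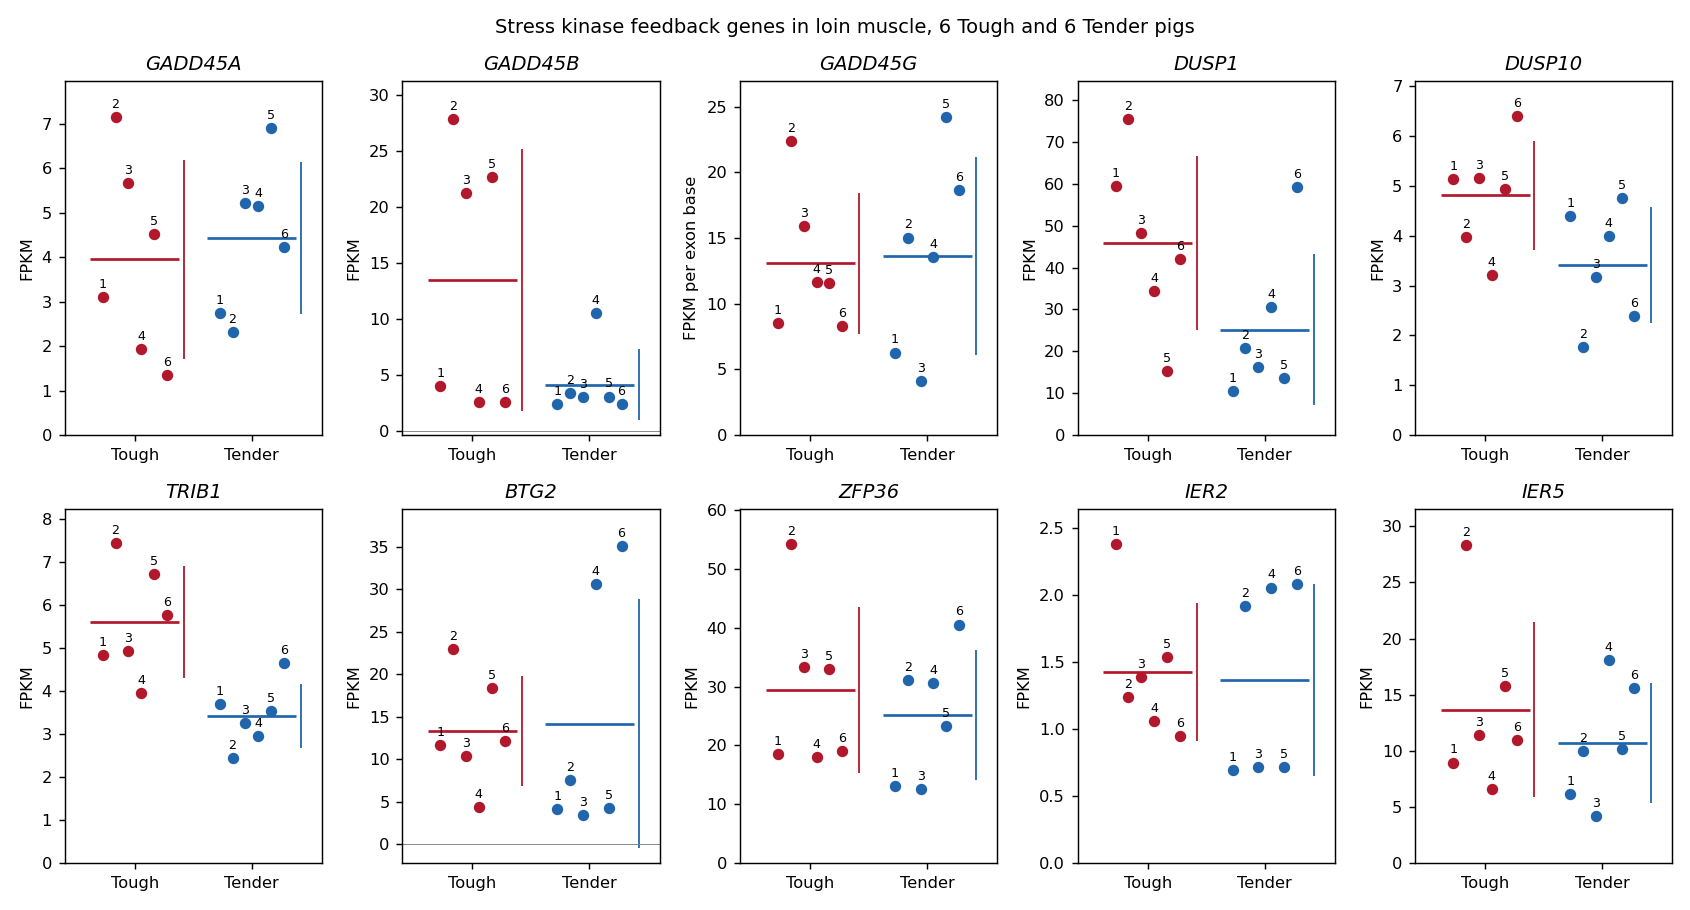
Level of the 10 genes in each animal in FPKM, per exon base for *GADD45G*, with the animal's number beside its point, the group mean as a horizontal line and the SD as a vertical line (n = 6 per group). *TRIB1* shows the tightest groups, with 5 of 6 Tough animals above every Tender animal, while *GADD45B* splits the Tough group into 3 high and 3 low animals.

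*TRIB1* (gene 100512960, chromosome 4, bases 14289739 to 14298119, minus strand) encodes a pseudokinase that holds the ubiquitin ligase COP1 and passes transcription factors of the C/EBP family to it. It was measured at 3.94, 5.34 and 7.45 FPKM as lowest, median and highest in the Tough group, against 2.43, 3.39 and 4.64 FPKM in the Tender group. The groups overlapped through 2 animals only, Tough 4 at 3.94 FPKM and Tender 6 at 4.64 FPKM. The mean was 5.61 ± 1.31 FPKM in the Tough group and 3.42 ± 0.750 FPKM in the Tender group (SD, n = 6 each), a log2 fold change of 0.63 ± 0.17 (SE), or 1.55-fold. The unadjusted limma p was 0.00266, place 9 among the 9127 genes, the adjusted p was 1.00, and the exact permutation p was 0.00433. Leaving out each animal in turn kept the log2 fold change between 0.55 and 0.72 and the unadjusted limma p between 0.00102 and 0.00742, and under 1 of 26 other settings, the plain sum of transcript FPKM, the p rose to 0.0917. Its spread between animals of 1 group was modest, with a within-group SD of 0.29 on the log2 scale, at the 38.1 percentile of all genes. The red blood cell markers moved with the groups too: *HBB* and *ALAS2*, 2 of 4 markers with a transcript, summed to between 124 and 206 FPKM in the Tough group and between 238 and 351 FPKM in the Tender group, without overlap. The part of blood in the *TRIB1* difference was not tested.

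The other list markers overlapped between groups. Skeletal muscle markers, 9 of 10 with a transcript (none for *MB*), summed to between 11042 and 16455 FPKM in the Tough group and between 9995 and 15008 FPKM in the Tender group, so the tissue carried the markers of its label. Macrophage markers (7 of 7) summed to between 6.91 and 24.3 FPKM in the Tough group and between 10.5 and 46.1 FPKM in the Tender group. Lymphocyte markers summed to at most 2.29 and 1.64 FPKM in the Tough and Tender groups, and *MS4A1*, *CD79A* and *CD79B*, which define B cells, had no transcript. Summed endothelial markers (5 of 6) reached 15.7 to 32.7 FPKM in the Tough group and 25.4 to 41.7 FPKM in the Tender group, and those of smooth muscle and pericytes (5 of 6) 28.7 to 70.4 FPKM and 32.1 to 42.1 FPKM in the Tough and Tender groups. Those of fibroblasts (5 of 5) were 61.5 to 191 FPKM in the Tough group and 58.3 to 142 FPKM in the Tender group, and those of adipocytes (4 of 5, none for *ADIPOQ*) 15.7 to 37.2 FPKM in the Tough group and 9.73 to 31.0 FPKM in the Tender group. Schwann cell markers (3 of 5) and satellite cell markers (3 of 3) stayed at or below 9.72 and 1.99 FPKM in all animals. The overlap of the adipocyte sums does not show a similar fat content, since the paper reports less intramuscular fat in the Tough group.

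*DUSP1* (gene 100522469, chromosome 16, bases 51457924 to 51461095, plus strand), a nuclear phosphatase that acts on p38, JNK and ERK, was the most abundant member in the Tough group. It had 15.3, 45.04 and 75.6 FPKM as lowest, median and highest in the Tough group, against 10.6, 18.6 and 59.1 FPKM in the Tender group. In 5 of 6 Tough animals the level was above the Tender median, yet the groups crossed, since Tough 5 was low at 15.3 FPKM and Tender 6 was high at 59.1 FPKM. The mean was 45.8 ± 20.7 FPKM in the Tough group and 25.2 ± 18.0 FPKM in the Tender group (SD, n = 6 each), a log2 fold change of 0.94 ± 0.44 (SE) with an exact permutation p of 0.0779. Per exon base the means were 41.4 ± 19.9 FPKM and 24.0 ± 18.7 FPKM in the Tough and Tender groups (SD), with an exact permutation p of 0.0996. Its introns were covered in all 6 libraries of each group, at up to 74.4% of the exon level in Tough 5 and 75.2% in Tender 1. The unadjusted limma p was 0.0542 with all animals. It was at most 0.05 under 6 of 26 other settings, 3 of them among the 12 fits that left out 1 animal. Median-of-ratios scaling and quantile normalization gave an unadjusted limma p of 0.0366 and 0.0358. Without Tender 6 the log2 fold change was 1.23 and the unadjusted limma p 0.00854, against 0.74 and 0.121 without Tender 1. With transcripts required to lie at least 90% in the gene they were 0.87 and 0.607. Under the settings tried the adjusted p was 0.714 or more.

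*DUSP10* (gene 100517416, chromosome 10, bases 10866446 to 10905852, minus strand) encodes a phosphatase that prefers p38 and JNK to ERK. Its levels were 3.22, 5.04 and 6.40 FPKM as lowest, median and highest in the Tough group and 1.78, 3.58 and 4.75 FPKM in the Tender group. In the Tough group 4 animals stood above the highest Tender animal, and Tough 2 and Tough 4 fell among the Tender animals. The value of Tough 6, the highest, rests partly on a transcript with 55.0% of its bases in the gene. Per exon base Tough 6 had 4.39 FPKM, below Tender 5 at 4.78 FPKM. The mean was 4.80 ± 1.10 FPKM in the Tough group and 3.41 ± 1.17 FPKM in the Tender group (SD, n = 6 each), with a log2 fold change of 0.47 ± 0.22 (SE) and an exact permutation p of 0.0714. Counted per exon base the difference was 0.38 on the log2 scale, and the exact permutation p was 0.102. With transcripts required to lie at least 90% in the gene it was 0.11, with an unadjusted limma p of 0.686. In the main fit the unadjusted limma p was 0.0524, and it was at most 0.05 under 7 of 26 other settings. Median-of-ratios scaling and quantile normalization gave 0.0396 and 0.0380. The adjusted limma p was 0.71 or more under every setting.

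The assembled forms of *DUSP10* also differed between libraries. A 4-exon transcript was present in 11 libraries and missing in Tough 6, where the gene was assembled as 2 separate pieces. A 3-exon transcript that joined the first exon straight to the third was assembled in 4 of 6 Tender libraries, animals 1, 2, 4 and 5, and in 0 of 6 Tough libraries. It leaves out the 854 bases of chromosome 10 from 10901930 to 10902783, an exon with 811 coding bases and the annotated start codon that both annotated transcripts of the gene include. Its level was 2.85, 0.811, 2.22 and 2.81 FPKM in those 4 Tender animals, or 32.0%, 24.4%, 29.4% and 30.5% of the summed *DUSP10* FPKM, and the Cufflinks 95% intervals all stayed above 0, the lowest between 0.541 and 1.08 FPKM in Tender 2. This form was noticed after its values were seen, and the difference between groups was not tested. Tough 1 and Tough 5 each had a second, 2-exon transcript, at 5.38 and 2.59 FPKM, that did not reach this exon. Which form these incomplete transcripts came from cannot be told. Cufflinks decides in each library on its own which transcripts to report, so a library with no 3-exon transcript is not shown to lack it.

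**Figure D2:**
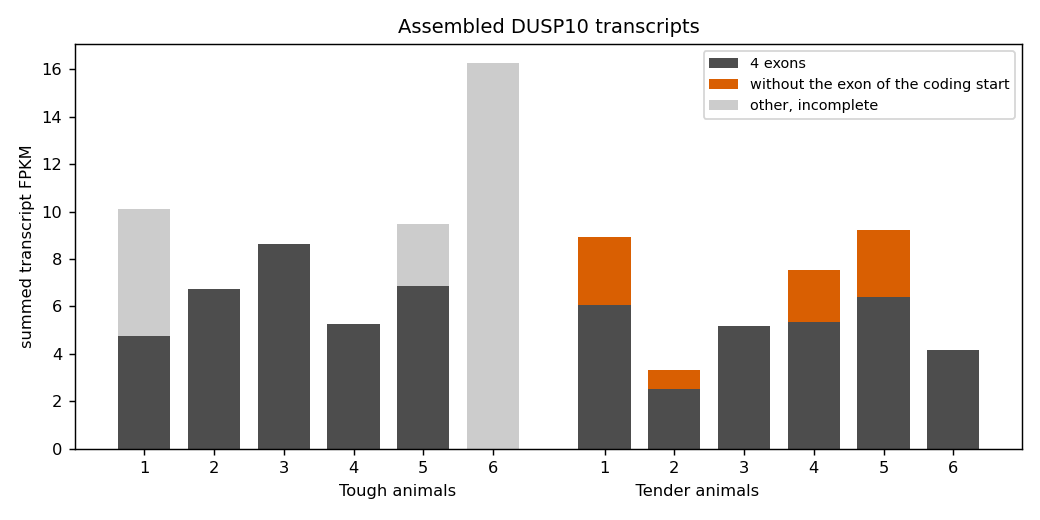
Summed FPKM of the assembled *DUSP10* transcripts in each animal, split into the 4-exon form (dark), the form without the exon that holds the coding start (orange) and other, incomplete transcripts (pale). Orange segments stand in Tender 1, 2, 4 and 5, at 0.811 to 2.85 FPKM, and in no Tough animal.

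*GADD45B* (gene 100621090, chromosome 2, bases 76107928 to 76111458, minus strand) had uneven levels between animals. Tough 2, 3 and 5 had 27.9, 21.2 and 22.7 FPKM and Tough 1, 4 and 6 had 3.99, 2.57 and 2.62 FPKM, against 10.6 FPKM in Tender 4 and between 2.39 and 3.41 FPKM in the other Tender animals. The 3 low Tough animals thus sat in or next to the range of the Tender group. The mean was 13.5 ± 11.7 FPKM in the Tough group and 4.15 ± 3.18 FPKM in the Tender group (SD, n = 6 each), a log2 fold change of 1.18 ± 0.63 (SE) with an unadjusted limma p of 0.0877 and an exact permutation p of 0.102. The value moved to 0.85 without Tough 2 and to 1.49 without Tough 4. Array weights, which let limma give less weight to uneven libraries, raised it to 1.75 with an unadjusted limma p of 0.0084 and an adjusted p of 0.670. With the highest transcript alone it was 0.53 with an unadjusted limma p of 0.295. The unadjusted limma p was at most 0.05 under 4 of 26 other settings. For *GADD45B* per exon base the means were 11.2 ± 9.50 FPKM and 3.46 ± 2.09 FPKM in the Tough and Tender groups (SD), with an exact permutation p of 0.113. Its within-group SD was 1.21 on the log2 scale, at the 93.4 percentile of all genes.

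Much of the *GADD45B* signal came from transcripts that kept introns. The 3 introns of the coding part hold 742 bases, and their level per base was 9.70, 10.1 and 14.1 FPKM in Tough 2, 3 and 5 and at most 1.14 FPKM in the other Tough animals, against 7.89 FPKM in Tender 4 and at most 2.25 FPKM in the other Tender animals. The same 4 animals were thus high for exons and for introns. In Tough 2, 3 and 5 the intron level was 40.3%, 58.7% and 82.1% of the exon level, and in Tender 4 it was 105%. The exon level was averaged over all 1902 annotated exonic bases, including a first exon that no transcript covered. Over the covered exons alone these percentages would be lower. The intron level was also high relative to low exon levels in Tough 6, at 52.5%, and in Tender 6, at 143%. In Tender 6 only 2 pieces, of 596 and 436 bases, were assembled. Over 1011 tested genes with up to 3000 bases of coding introns, an intron level above 25% of the exon level was seen in 2.47% to 3.66% of genes in the Tough libraries and in 2.47% to 4.75% in the Tender libraries, the highest share being that of Tender 4. The transcript with all 3 introns removed was listed at 4.98, 21.8, 7.32, 2.92, 10.6 and 2.12 FPKM in Tough 1 to 6 and at 2.54, 4.53, 4.26, 3.70, 4.48 and 0 FPKM in Tender 1 to 6. By this spliced form Tender 4 lay inside the range of its group. The part of unspliced RNA or of genomic DNA in the libraries in this result was not tested. In all 12 libraries the highest *GADD45B* transcript began within 100 bases of position 76109988, 1470 bases inside the annotated gene, and so left out its first annotated exon.

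**Figure D3:**
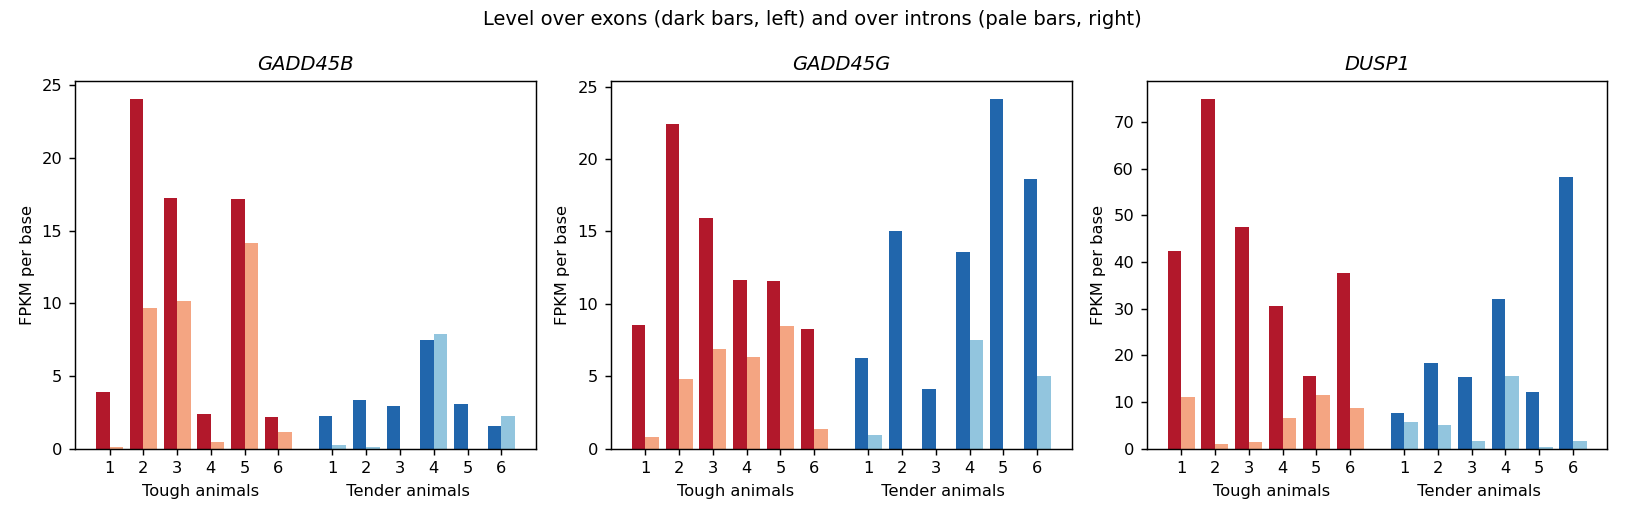
Level per base over exons (dark bars) and over introns of the coding part (pale bars) in FPKM for *GADD45B*, *GADD45G* and *DUSP1* in each animal. For *GADD45B* the pale bars reach 7.89 FPKM or more in Tough 2, 3 and 5 and in Tender 4, and stay at 2.25 FPKM or below elsewhere.

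*GADD45G* (gene 100152997, chromosome 14, bases 1166000 to 1167538, plus strand) and *GADD45A* (gene 733669, chromosome 6, bases 144940702 to 144944089, minus strand) had smaller differences between the groups. In Tough 2, 4 and 6 a transcript over *GADD45G* began 1934, 1938 and 1931 bases before the annotated gene, beside others that were counted. In Tender 3 the only transcript began 1935 bases before it. Less than 50% of that transcript lay in the gene, so the gene was listed at 0. The levels of *GADD45G* are therefore given per exon base. They were 8.52, 22.4, 15.9, 11.7, 11.6 and 8.29 FPKM in Tough 1 to 6, against 6.29, 15.0, 4.12, 13.6, 24.2 and 18.6 FPKM in Tender 1 to 6. The group means were 13.1 ± 5.34 FPKM and 13.6 ± 7.51 FPKM in the Tough and Tender groups (SD, n = 6 each), with an exact permutation p of 0.868 on the log2 scale. The intron level of *GADD45G* was 4.79, 6.89, 6.31 and 8.49 FPKM in Tough 2, 3, 4 and 5 and at most 1.397 FPKM in the other Tough animals, against 7.49 and 4.99 FPKM in Tender 4 and 6 and at most 0.920 FPKM in the other Tender animals. It reached 73.2% of the exon level in Tough 5 and 55.2% in Tender 4. *GADD45A*, which DNA damage also induces, had 1.35, 3.81 and 7.14 FPKM as lowest, median and highest in the Tough group, against 2.32, 4.68 and 6.89 FPKM in the Tender group. Its log2 fold change was -0.24 ± 0.36 (SE), with an exact permutation p of 0.556, and the groups overlapped over nearly their whole range. Within the Tough group *GADD45A* had its highest levels in the animals high for *GADD45B*, at 7.14, 5.66 and 4.52 FPKM in Tough 2, 3 and 5, with 3.10, 1.94 and 1.35 FPKM in Tough 1, 4 and 6. Per exon length, *GADD45B* stood above *GADD45G* in Tough 2, 3 and 5 and below it in the other Tough animals, and in the Tender group *GADD45G* stood above the other 2 GADD45 genes in 5 of 6 animals.

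**Figure D4:**
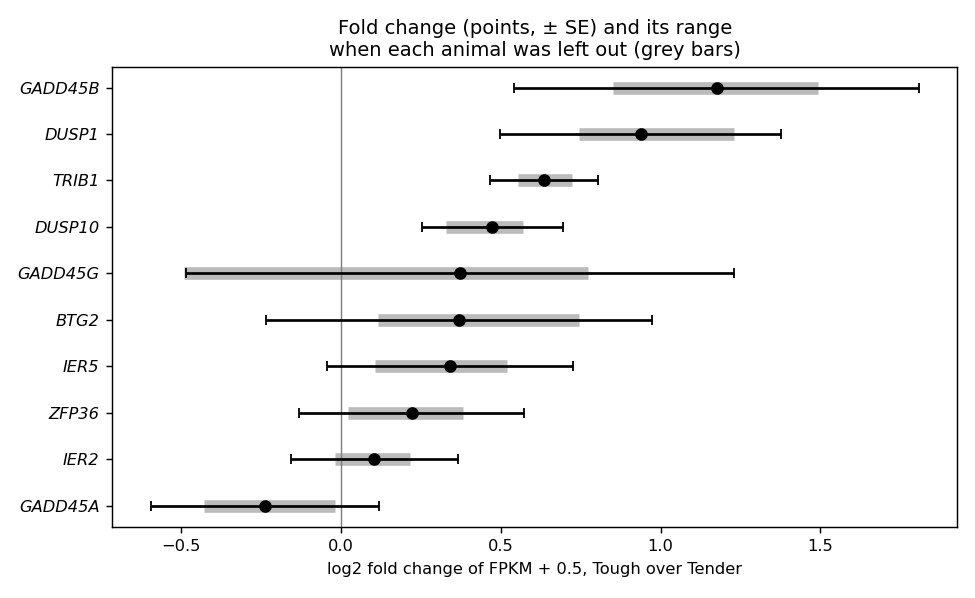
Log2 fold change of FPKM + 0.5, Tough over Tender, for each member with its SE, and as a grey bar its range when each animal was left out in turn. *TRIB1* has the narrowest bar, 0.55 to 0.72, and that of *GADD45G* runs from -0.49 to 0.77.

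*BTG2* (gene 100048932, chromosome 9, bases 64033853 to 64037795, plus strand), an antiproliferative protein that binds the deadenylases CNOT7 and CNOT8, varied most widely in the Tender group relative to its level among the members listed in every library. It was measured at 4.46, 11.9 and 22.9 FPKM as lowest, median and highest in the Tough group and at 3.49, 5.93 and 35.1 FPKM in the Tender group. Tender 4 and Tender 6 were the highest of all animals, at 30.6 and 35.1 FPKM, and the other 4 Tender animals lay at 7.63 FPKM or below. The log2 fold change was 0.37 ± 0.60 (SE) while the mean was 13.3 ± 6.47 FPKM in the Tough group and 14.2 ± 14.6 FPKM in the Tender group (SD, n = 6 each), so the log scale and the plain mean gave opposite signs, and the exact permutation p was 0.582. No *BTG2* transcript covered its intron of 1266 bases in any library.

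*ZFP36* (gene 100316849, chromosome 6, bases 48063732 to 48066235, plus strand) encodes tristetraprolin, which binds AU-rich stretches of short-lived messenger RNAs. Its levels were 18.1, 26.0 and 54.3 FPKM as lowest, median and highest in the Tough group, against 12.6, 27.0 and 40.6 FPKM in the Tender group. The log2 fold change was 0.22 ± 0.35 (SE) with an exact permutation p of 0.569, and it was 0.02 without Tough 2, 0.05 without Tender 3 and 0.06 without Tender 1.

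The immediate early genes *IER2* (gene 100525209, chromosome 2, bases 65909638 to 65912491, minus strand) and *IER5* (gene 100511095, chromosome 9, bases 122633781 to 122635950, plus strand) have no introns, and each was assembled as 1 transcript in every library. *IER5*, a regulator of heat shock factor 1, had 6.63, 11.2 and 28.3 FPKM as lowest, median and highest in the Tough group and 4.20, 10.1 and 18.1 FPKM in the Tender group. *IER2*, a nuclear protein induced by serum and growth factors, was the lowest member, with a highest value of 2.38 FPKM in Tough 1 and of 2.08 FPKM in Tender 6. In the Tender group *IER2* fell into 3 animals at 0.695 to 0.716 FPKM and 3 at 1.91 to 2.08 FPKM, with all Tough animals other than Tough 1 between 0.948 and 1.53 FPKM. The log2 fold changes were 0.34 ± 0.38 (SE) for *IER5* and 0.10 ± 0.26 (SE) for *IER2*, with exact permutation p of 0.433 and 0.701. That of *IER5* was 0.11 without Tough 2 and 0.12 without Tender 3.

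Some members were high or low in the same animals. Tough 2 had the highest level of 6 of the 10 members, *GADD45G* being read per exon base, and was among the top 3 animals for 8. Tender 6 was among the top 3 for 5 members, whereas Tender 1 and Tender 3 were each among the lowest 3 for 7. After subtracting group means, 30 of 36 pairs of the 9 members with a value in every library had a positive Pearson r, with a median of 0.45. The libraries share their scaling and depth, and its part in these values was not tested. *IER5* and *ZFP36* were the closest pair, with r = 0.91 over 12 animals (permutation p = 0.00037, adjusted p over the 36 pairs 0.0133) and Spearman rho = 0.90 (permutation p = 0.00069, adjusted 0.0248), and r was 0.92 within the Tough group and 0.91 within the Tender group. Without Tough 2 and Tender 3, the animals farthest from the median of *IER5*, r was 0.85 and its adjusted permutation p 0.0700. *BTG2* and *IER5* followed with r = 0.86 (adjusted permutation p = 0.0261) and rho = 0.83 (adjusted permutation p = 0.0587), and without Tender 6 and Tender 4 r was 0.83 with an adjusted permutation p of 0.0320. The other 34 pairs had an adjusted permutation p for r above 0.05, and the most negative r was that of *DUSP10* with *IER2*, at -0.40. These animals differ also in whatever else varied before and after slaughter, which was not tested.

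**Figure D5:**
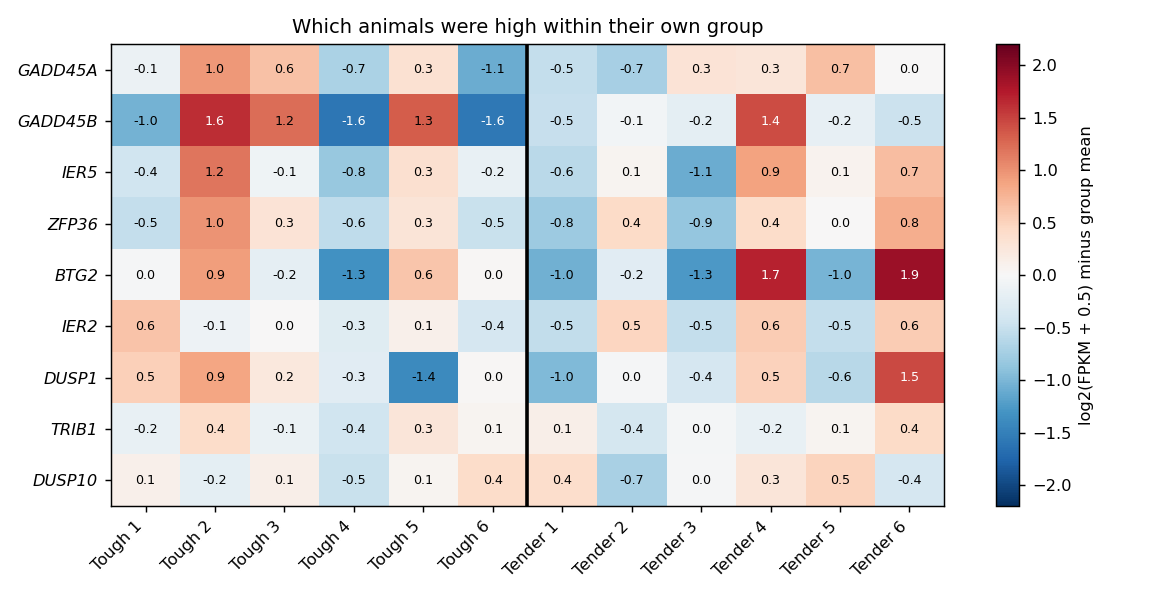
Level of 9 members in each animal as log2(FPKM + 0.5) minus the mean of the animal's own group, red for above and blue for below. Tough 2 is red for 7 of 9 genes, Tender 4 and Tender 6 are red for *BTG2*, *IER5*, *ZFP36* and *IER2*, and *TRIB1* is the palest row.

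The members were mostly variable genes. Their median within-group SD was 0.70 on the log2 scale, against 0.34 over all genes tested, and 8 of 10 lay above the 75 percentile of all genes, *DUSP10* at 64.6 and *TRIB1* at 38.1 being the others. The highest animal exceeded the lowest 11.7-fold for *GADD45B*, 10.1-fold for *BTG2* and 3.06-fold for *TRIB1*. The tested genes whose centred levels were most like those of a member over the 12 libraries were, as a description, the immediate early factor *EGR1* for *BTG2* (r = 0.95), with *CAT* (r = 0.92) and *FOSB* (r = 0.92) next. The transcription factor gene *KLF2* (r = 0.95) was nearest to *IER2*, before *ARL6IP1* (r = 0.94) and *SRGN* (r = 0.90). *CSRNP1* (r = 0.94), *CRKL* (r = 0.91) and *ARRDC3* (r = 0.89) were nearest to *ZFP36*, and *MYNN* (r = 0.96), *ZFP1* (r = 0.93) and *HACD3* (r = 0.93) to *IER5*. For *GADD45A* they were *EWSR1* (r = 0.94), *C4H1orf112* (r = 0.92) and *MAP2K3* (r = 0.91), the last a kinase that activates p38, and for *GADD45B* they were *ANO6* (r = 0.95), *DYNLL2* (r = 0.93) and *LSG1* (r = 0.92). Those of *DUSP1* were *IVNS1ABP* (r = 0.87), *NOSTRIN* (r = 0.86) and *FDXACB1* (r = 0.86), those of *DUSP10* included the muscle methyltransferase gene *SMYD1* (r = 0.83) and *LOC110255265* (r = 0.83), and those of *TRIB1* were the M-band gene *MYOM2* (r = 0.78), *REV1* (r = 0.77) and *KIAA1671* (r = 0.77). The same 12 libraries and depths underlie all of these values. Each gene was picked as one of the highest r among all genes tested, so a high r follows in part from the choice. Whether these values exceed those of unrelated genes was not tested.

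No relation between a member and shear force inside a group passed the test. Over 18 relations, 9 members in each group of 6 animals, Pearson r ran from -0.69 for *DUSP10* in the Tough group (exact permutation p = 0.128) to 0.60 for *TRIB1* in the Tender group (exact permutation p = 0.200), with adjusted exact p of 0.766 or more. Spearman rho was -0.54 and 0.60 for these (exact permutation p = 0.297 and 0.242), its adjusted exact p over all relations was 0.639 or more, and without the 2 animals farthest from the median shear force r was -0.93 and 0.47 over 4 animals.

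Values after ± beside a log2 fold change are SE in what follows. Of 21 stress kinases and their upstream kinases 15 were tested, 6 with a log2 fold change above 0 and 9 below, and 0 passed an unadjusted limma p of 0.05, with a median of -0.04, like that of all genes. *MAPK9*, which encodes JNK2, averaged 3.14 ± 1.78 FPKM in the Tough group and 4.16 ± 1.17 FPKM in the Tender group (SD, n = 6 each), with a log2 fold change of -0.46 ± 0.31 (SE). *MAP2K6*, an activator of p38, had a log2 fold change of 0.33 ± 0.24 (SE), *MAP3K20* one of -0.77 ± 0.84 and *TAB2* one of 0.14 ± 0.18. The partner of the GADD45 proteins *MAP3K4* was at 2.33 ± 0.495 FPKM in the Tough group and 2.19 ± 0.350 FPKM in the Tender group. Of 9 tested kinases and scaffolds downstream of the stress kinases, 4 lay above 0 and 5 below, and 0 passed, the smallest p being those of *MKNK2* (-0.42 ± 0.31), *MAPKAPK2* (-0.15 ± 0.14), *MAPK8IP1* (0.12 ± 0.13) and *MKNK1* (-0.13 ± 0.14).

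Among 4 tested MAP kinase phosphatases other than the members, *DUSP8*, which acts on JNK and p38, went the other way from *DUSP1* and *DUSP10*. It averaged 8.39 ± 2.66 FPKM in the Tough group and 11.7 ± 2.55 FPKM in the Tender group (SD, n = 6 each), with a log2 fold change of -0.48 ± 0.20 (SE), an unadjusted limma p of 0.0284, an adjusted p of 1.00 and an exact permutation p of 0.0411. The values of *DUSP6*, a phosphatase of ERK, were 1.399 ± 0.350 FPKM in the Tough group and 1.20 ± 0.360 FPKM in the Tender group, and those of *DUSP7* and *DUSP16* had log2 fold changes of -0.02 and 0.02.

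Of 12 tested AP-1 and immediate early factors, 9 lay above 0 and 3 below, with a median log2 fold change of 0.04, and 0 passed. *ATF3*, a stress-induced factor of the CREB family, was listed between 3.86 and 14.1 FPKM in the Tough group and between 0 and 8.62 FPKM in the Tender group, where 1 library was at 0, with an exact permutation p of 0.136. *KLF4* (0.39 ± 0.35), *FOSB* (0.48 ± 0.48) and *MYC* (-0.20 ± 0.24) came next by p. Of 8 tested paralogs of the members, 5 lay above 0 and 3 below and 0 passed, and those of smallest p were *IER3* (-0.25 ± 0.19), *TRIB2* (0.15 ± 0.20), *TOB1* (-0.96 ± 1.74, listed at 0 in 2 Tough libraries and 1 Tender library) and *IER5L* (0.07 ± 0.16). *TRIB2*, the paralog of *TRIB1*, was at 0.979 ± 0.416 FPKM in the Tough group and 0.814 ± 0.265 FPKM in the Tender group (SD, n = 6 each).

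The CCR4-NOT deadenylase is recruited by BTG2 and ZFP36. Its list also holds *PAN2* and *PAN3*, which belong to another deadenylase. Of the 12 tested genes of this list, 6 lay above and 6 below 0, and 0 passed. Those of smallest p were *CNOT4* (0.18 ± 0.19), *CNOT11* (-0.09 ± 0.13), *CNOT2* (-0.09 ± 0.17) and *CNOT9* (-0.07 ± 0.14). Of 11 tested growth arrest and DNA damage response genes 4 lay above 0 and 7 below, and 0 passed. *CDKN1A*, an inhibitor of cyclin-dependent kinases that halts the cell cycle, averaged 10.7 ± 7.11 FPKM in the Tough group and 18.5 ± 8.20 FPKM in the Tender group (SD, n = 6 each), with a log2 fold change of -0.80 ± 0.42 (SE) and an exact permutation p of 0.0952. *DDIT3* was listed at 0 in 1 Tough and 4 Tender libraries, and *PPP1R15A* had a log2 fold change of -0.32 ± 0.26. Of 8 other tested brakes on kinase signalling 5 lay above 0 and 3 below, 0 passed, and those of smallest p were *NFKBIA* (-0.41 ± 0.24), *SOCS3* (-0.37 ± 0.24), *ERRFI1* (0.30 ± 0.24) and *SIK1* (-0.23 ± 0.20).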

How the data were processed

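Loin muscle RNA of 12 animals, 6 Tough and 6 Tender as titled in the labels, was sequenced, each animal being 1 replicate. Per the methods and the submitters' processing notes, the authors ran FastQC and Trim Galore, TopHat2 2.1.0 on Sscrofa11.1, and Cufflinks 2.2.1 separately per library. The deposited files list exons with transcript FPKM values, their 95% interval and a deposited isoform score, which was not used. They hold no read counts, so no count model was run, and read totals were not used here. The deposited coverage per FPKM of member transcripts, a measure of relative depth, had medians of 6.90 to 10.3 in the Tough libraries and 6.60 to 8.39 in the Tender libraries. Coverage of single member transcripts ran from 3.33 for *GADD45B* to 582 for *DUSP1*. The fattening batch and lane of single animals could not be taken into account.

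Each transcript on a chromosome went to the gene of NCBI Release 106 (28212 genes) holding at least 50% of its exonic bases, on the same strand where it had one. Between 331 and 401 scaffold transcripts a library were dropped. For gene FPKM, each FPKM was weighted by the length of its transcript, and the total was divided by the exonic bases of the gene. The value per exon base counts every transcript by its overlap with the exons. No member shares exonic bases with an annotated neighbour.

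Values entered the test as log2(FPKM + 0.5), which understates the change of low genes, for genes averaging over 0.5 FPKM. The two-sided test was limma 3.58.1 in R 4.3.3 with a trend and no covariate, adjusted by Benjamini-Hochberg over the 9127 genes, and was tested on simulated data. Single values were compared by two-sided exact permutation of animals, shear force relations over 720 orders, and member pairs by 100000 permutations within groups. Named were the members, up to 4 genes of smallest p per list and the 3 genes most like each member other than *GADD45G*; *MAP3K4* and the *DUSP10* form were added after their values were seen. Some genes that this rule names are not reported here. Members and lists were chosen with earlier results of these data known. Alternatives were other pseudocounts, filters, scalings and gene measures, robust and weighted limma, a replicate block, and leaving out each animal. Promoter windows came from the reference genome. Figures and exact tests used scipy 1.17.1, numpy 2.4.6, matplotlib 3.10.9 and pandas 2.3.3 under Python 3.11.15.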

Additional observations from a re-analysis of the deposited data

Results flagged for a closer look

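*GADD45B* in Tender 4, at 10.6 FPKM, lay far above the other 5 Tender animals, which were between 2.39 and 3.41 FPKM. The gap to the nearest of them was 0.875 of the range of the group. Of 22 sets of 6 values examined in this way, this was the only one, and chance alone would mark about 1 in 20. Per exon base Tender 4 stood at 7.51 FPKM. Its fully spliced *GADD45B* transcript, at 3.70 FPKM, lay inside the range of its group.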

How the results depend on the processing

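No gene was called under any alternative, including an adjusted p of 0.05 and the exact Wilcoxon test. The count of 223 genes at an unadjusted p of at most 0.05 became 369 with no filter, 385 with the plain sum of transcript FPKM, 343 with the highest transcript alone and 655 with array weights, and ran from 147 (without Tender 5) to 411 (without Tender 4) when animals were left out, with 369 without Tough 1 and 375 without Tender 1. Median-of-ratios and quantile scaling moved those higher in the Tough group to 144 of 283 and 143 of 292, where the split was 66 of 223 as reported, 280 of 655 with array weights and 250 of 411 without Tender 4. All 10 members kept their sign under both scalings. With strand-assigned transcripts alone, chosen after seeing the data, 222 genes passed and 0 were called. With at least 90% of a transcript's bases required in the gene, the log2 fold changes of *BTG2*, *IER5* and *ZFP36* turned to -0.56, -1.997 and -0.91, since transcripts reaching past the annotation were then dropped. *GADD45G* turned to -0.49 without Tender 3, where it was listed at 0, and otherwise reached 0.77 when animals were left out. It was 2.08 (unadjusted limma p 0.0420) under the 90% rule, 1.16 with the highest transcript alone and 1.075 with the plain sum. *IER2* turned to -0.0196 without Tough 1 and to -0.00435 without Tender 1, otherwise reached 0.22 when animals were left out, and was 0.28 with array weights. On plain means *GADD45G* and *BTG2* were higher in the Tender group, with exact permutation p of 0.576 and 0.883.

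Without the 2 animals farthest in shear force, r turned to -0.62 for *GADD45A* and -0.998 for *IER2* in the Tough group and to -0.93 for *GADD45A* and -0.11 for *DUSP10* in the Tender group, each over 4 animals. Without the 2 farthest animals, r turned to -0.31 for *GADD45B* with *DUSP1* and to -0.55 for *DUSP10* with *TRIB1*, that of *IER5* with *ZFP36* was 0.85 and no longer passed, and that of *DUSP1* with *BTG2* was 0.81 and passed. The causes were not tested.

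Animals of the same number did not pair: the correlations of their deviations ran from -0.22 to 0.02. With the number as a replicate block 177 genes passed the unadjusted threshold, 0 were called, and the log2 fold changes of the members were unchanged, with unadjusted limma p of 0.0108 for *TRIB1* and 0.0492 for *DUSP1*. No read counts were used, so the part of depth in these limits was not tested.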
